A study of Rattus norvegicus with 18 samples.

Results

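The proteasome genes described here are the genes of the rat arrays whose symbols begin with Psma, Psmb, Psmc, Psmd, Psme, Psmf or Psmg and a number, without the immunoproteasome genes Psmb8, Psmb9 and Psmb10. They came to 43 of the 13807 genes that could be read from a probe set with only 1 gene in the array annotation. By role they are 7 alpha and 6 beta subunits of the 20S core particle, 6 ATPases and 11 other subunits of the 19S regulatory particle, 3 activators, 1 inhibitor and 7 assembly chaperones. The last 2, Psmc3ip and Psme3ip1, are only named after a subunit. They are in none of these roles, but they are counted in every count, share and median over the 43 genes. The brightest probe set stood for each gene, 39 on array type A and 4 (Psmc6, Psmd7, Psmd12 and Psmd14) on type B. No reading of these 43 probe sets was below the floor of 50 to which low signals were raised. Psma3l, Psmb6, Psmb6l1, Psmc6-ps2 and Psme3 lay only on probe sets with several genes and were not read, and no probe set was named for Psma8.

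The study measured RNA from testis cells of 22-day-old rats in 9 libraries, each on 1 array of type A and 1 of type B. 7 libraries were germ cells, of which 1 had bound to laminin and 1 had not, both labelled as cultured with no day given. Germ cells had also been grown on STO feeders, a mouse embryonic fibroblast line, for 1, 5, 10 or 20 days, or on MSC1 feeders, a mouse Sertoli cell line, for 20 days. The somatic libraries were interstitial cells, which lie outside the seminiferous tubules, and tubular somatic cells, both from testis of the same age with no culture named. No strain, genotype or number of animals is given in the labels. There was 1 library per population, so folds between libraries carry no p-value. As a measure of array error, 100 probe sets present on both array types gave log2 folds whose SD per array type was 0.20 to 0.27, so that 2 SD correspond to 1.31-fold to 1.46-fold. That error covers the arrays and not the animals, the cultures or the amplification. The 100 probe sets had a geometric mean signal of 923, and the error was not measured apart for dimmer genes. In mixed cell populations, fewer cells of a type and less RNA per cell cannot be told apart.

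The proteasome breaks down proteins that carry a ubiquitin tag. Its barrel-shaped 20S core holds the proteolytic sites on beta subunits between rings of alpha subunits, and the 19S particle caps the barrel, recognises ubiquitin and feeds the unfolded protein in through a ring of ATPases. The activator formed by Psme1 and Psme2 opens the core without the 19S particle and is known as an interferon-inducible partner of the immunoproteasome. In mouse testis, spermatocytes build a germ cell form of the core with Psma8 in place of Psma7, and the activator Psme4 is needed for normal spermatogenesis.

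The labels were set against marker genes first. The summed signal of 6 germ cell markers was 7670.4 to 25409 in the germ cell libraries and 703 in each somatic library. The summed signal of 11 spermatocyte markers was 34469.8 in laminin non-binding cells and 2264 in laminin-binding cells. It was 15989 on STO day 20 against 3421 to 4478 on the earlier STO days. Of these 11, Ldhc, Crisp2 and Ccna1 were below the floor on STO day 20, while all 11 reached it in non-binding cells. The tubular fraction carried Sertoli markers, summing to 14042 over 12 genes, but Sox9 and Amh were below the floor there. The interstitial fraction carried Leydig markers, summing to 9449.6 over 9 genes, with Insl3 below the floor. The Gapdh control probe set of the 3' end on type A exceeded that of the 5' end by a factor of 14.7 to 29.7 in the 5 feeder libraries and 5.63 to 11.2 in the other 4. For beta-actin that factor was 25.8 to 94.3 in the feeder libraries and 8.91 to 67.3 in the others, which overlap.

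The proteasome genes were present in every library and varied less than the typical gene. Among the 35 of them with a geometric mean signal of at least 250, the highest library exceeded the lowest by a median of 3.11-fold, against 4.15-fold among 5520 genes of that brightness. The narrowest range was that of Psma6, an alpha subunit of the core, at 1.70-fold. The assembly chaperone Psmg4 at 1.75-fold, the alpha subunit Psma5 at 1.76-fold and the 19S subunit Psmd12 at 1.87-fold followed. Psma6 read 3173 in laminin-binding cells, 4438 in non-binding cells, 2954, 3899, 3236 and 3248 on STO days 1, 5, 10 and 20, 2668 on MSC1, 2606 in interstitial and 4138 in tubular cells. Among the same 35 genes the widest ranges were those of Psme1 at 8.96-fold, the core subunit Psmb4 at 7.31-fold, Psmc3ip at 7.11-fold and the 19S ATPase Psmc6 at 6.25-fold. Among the dimmer genes, the ATPase Psmc3 spanned 3.91 log2 units, against 3.16 for Psme1, and the alpha subunit Psma2 spanned 11.8-fold. Of the 43 genes, 17 had their lowest signal on STO day 20 and 17 their highest in tubular somatic cells. STO day 10 was neither the lowest nor the highest library for any of them. The lowest and highest libraries were not counted over all genes, so how usual such counts are is not known.

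Over all 43 genes the median log2 deviation from each gene's own mean was -0.48 on STO day 20 and 0.43 in tubular somatic cells, and it lay between -0.09 and 0.18 in the other libraries. The same median over 8912 genes with a mean signal of at least 100 was -0.08 on STO day 20 and -0.13 in tubular cells. All 6 beta subunits and all 6 ATPases lay below their own mean on STO day 20, with medians of -1.01 and -0.58. The heatmap of deviations shows both columns.

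**Figure D1:**
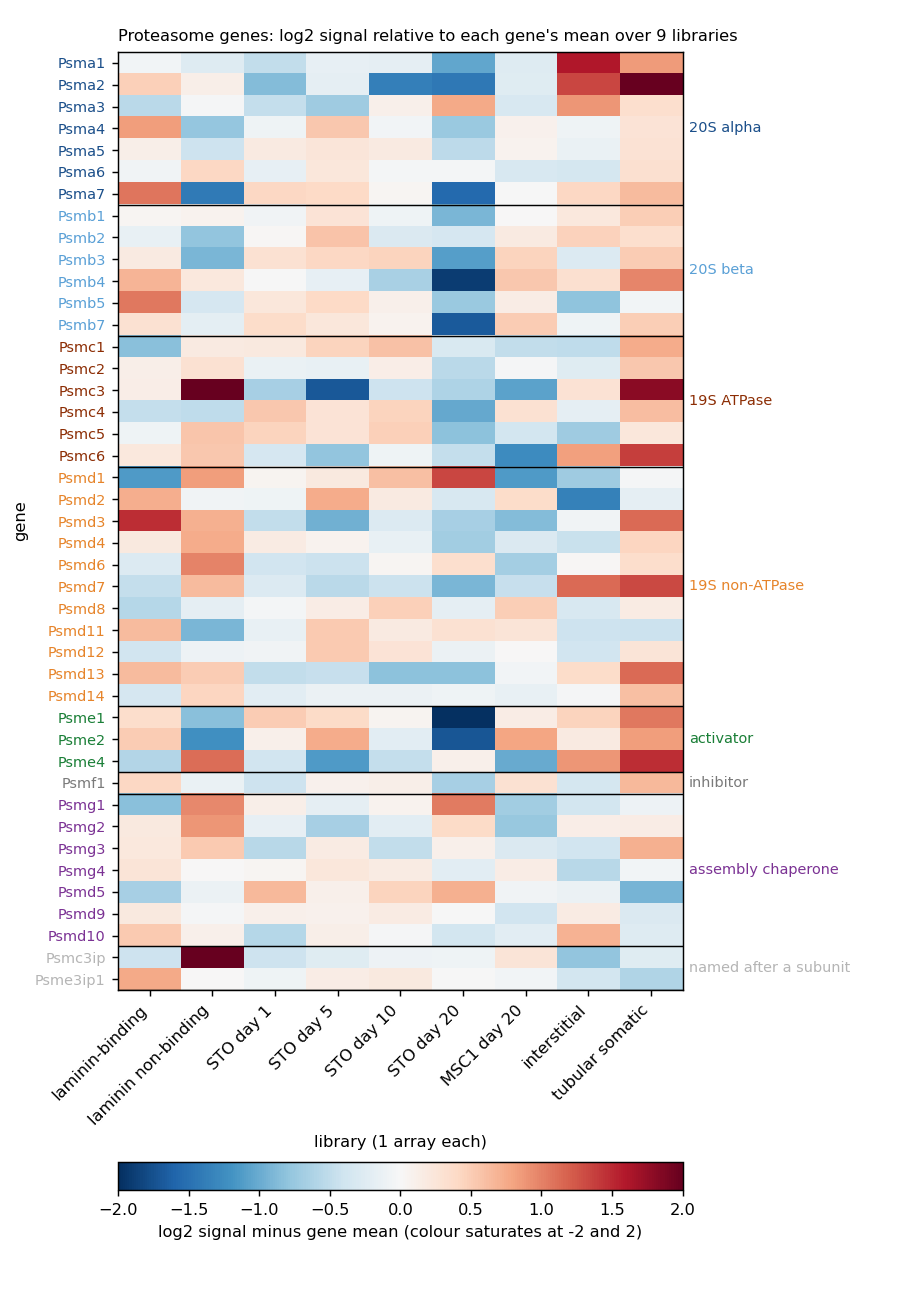
Log2 signal of each of 43 proteasome genes (rows, grouped by role) in 9 libraries (columns, 1 array each), relative to the gene's own mean over the libraries; red is above and blue below, and the colour saturates at -2 and 2. The STO day 20 column is mostly blue in the 20S and ATPase rows, and the tubular somatic column is mostly red.

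The promoters of 4 of the genes that the results below turn on are shown here. They run from 250 bases before to 50 after the start given by RefSeq for the GRCr8 assembly. Psmb7, Psme1 and Psme2 were low on STO day 20, and Psmd1 was high there. Capitals mark matches, on either strand, to the CCAAT box (CCAAT), the core of the antioxidant response element (TGACNNNGC) and the core of the interferon-stimulated response element (GAAA, any 2 bases, then GAAA), which are the motifs that the factors Nfy, the Nrf family and the interferon regulatory factors are known to bind.
Psmb7, chr3:42827421-42827720, minus strand: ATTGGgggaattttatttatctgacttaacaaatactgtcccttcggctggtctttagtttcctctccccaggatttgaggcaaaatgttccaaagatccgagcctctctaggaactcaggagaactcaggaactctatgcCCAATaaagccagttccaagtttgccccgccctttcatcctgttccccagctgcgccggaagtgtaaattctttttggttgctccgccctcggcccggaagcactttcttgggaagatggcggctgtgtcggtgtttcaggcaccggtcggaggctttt
Psme1, chr15:33038721-33039020, plus strand: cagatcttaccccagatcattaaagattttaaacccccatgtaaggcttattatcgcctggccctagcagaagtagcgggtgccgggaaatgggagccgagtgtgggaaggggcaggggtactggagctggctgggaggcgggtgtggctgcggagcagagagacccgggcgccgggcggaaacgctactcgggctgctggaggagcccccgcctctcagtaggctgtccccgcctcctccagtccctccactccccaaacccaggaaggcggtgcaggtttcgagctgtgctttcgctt
Psme2, chr15:33052702-33053001, minus strand: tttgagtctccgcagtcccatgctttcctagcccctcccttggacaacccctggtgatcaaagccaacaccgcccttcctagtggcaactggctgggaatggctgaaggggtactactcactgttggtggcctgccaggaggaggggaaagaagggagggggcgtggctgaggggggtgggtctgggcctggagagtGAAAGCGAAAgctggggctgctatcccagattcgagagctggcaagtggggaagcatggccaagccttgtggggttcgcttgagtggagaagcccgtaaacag
Psmd1, chr9:94157721-94158020, plus strand: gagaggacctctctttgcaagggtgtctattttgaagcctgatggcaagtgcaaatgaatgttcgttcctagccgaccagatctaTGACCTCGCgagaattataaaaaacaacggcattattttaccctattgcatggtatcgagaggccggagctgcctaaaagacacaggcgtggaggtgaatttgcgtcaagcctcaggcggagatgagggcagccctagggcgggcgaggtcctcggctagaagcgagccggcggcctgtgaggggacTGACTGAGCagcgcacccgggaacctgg
The Psmb7 window holds a CCAAT match 109 bases before the start and another in reverse at its first base, the Psme2 window an interferon element match 53 bases before the start, and the Psmd1 window TGACNNNGC matches 165 bases before and 23 after it. The Psme1 window holds none of these letters, nor do those of Psmb4 and Psmg1, which are also called below and are not shown. The Psmc3 window, not shown either, holds a CCAAT match, and no promoter was found for Psma7. Of the 43 genes, 39 had a promoter in the RefSeq table used. CCAAT was in 20 of them (51.3%, against 37.7% of all 27457 promoters), TGACNNNGC in 7 (17.9% against 12.2%) and the interferon element in 5 (12.8% against 3.77%). Those 5 were Psma4, Psmb3, Psmd7, Psme2 and Psmg4. A match is a run of letters and not a measured binding site.

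The first comparison set laminin-binding against non-binding germ cells. A gene was called where the fold was at least 3 and the brighter side at least 250. In laminin-binding cells 3 proteasome genes were higher by that rule, where 4.85% of all genes were, and 5 were lower, where 5.29% were. The core subunits Psma7 and Psma4 and the activator subunit Psme2 were the higher ones. Psmc3ip, the ATPase Psmc3, the large 19S scaffold subunit Psmd1, the assembly chaperone Psmg1 and the activator Psme4 were the lower ones. Of these, Psmc3ip is only named after a subunit. The shares of all genes beside counts of folds, here and below, are over 13807 genes, many of them too dim to be called. Of those, 5520 had a geometric mean signal of at least 250, as had 35 of the 43 proteasome genes. The shares are thus not matched for brightness, and they would be higher over genes bright enough to be called.

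Psma7, the alpha subunit that Psma8 replaces in mouse spermatocytes, read 1982 in laminin-binding and 354 in non-binding cells, a 5.60-fold difference. Its second probe set, on type B, read 399.9 and 193, which is 2.08-fold. Psma7 was thus higher in laminin-binding cells by both probe sets, though by different amounts. Psme2 read 1222 and 365, which is 3.35-fold, and its partner Psme1 read 648 and 284, which is 2.28-fold and not called. Psma4 read 1761 and 577, at 3.05-fold just past the threshold. The log2 fold of Psma4 was 1.53 with the arrays scaled to a common 75th percentile and 1.48 after quantile normalization, both short of a call. Psmd11, a 19S scaffold subunit, read 2695 and 924, at 2.92-fold just short of the threshold. Its log2 fold was 0.81 when all its probe sets were averaged.

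Psmc3ip, a factor of meiotic recombination, read 248 in laminin-binding and 1360.3 in non-binding cells, a 5.48-fold difference. In the other 7 libraries Psmc3ip read 191 to 395, so the non-binding library stood alone. Psmc3 read 259.8 and 1100.2, which is 4.23-fold, and outside the non-binding library it reached 829 in tubular cells. Psmd1 read 226 and 883, 3.91-fold, and Psmg1 read 758 and 2648, 3.49-fold. Psme4, the activator known from mouse spermatogenesis, read 607 and 1977, 3.26-fold. It was not a germ cell signal alone, as the interstitial library read 1674 and the tubular library 2538. Both other probe sets of Psme4 were also dimmer in laminin-binding cells, at 69.5 against 109 and at 15.5 against 432. After quantile normalization the log2 folds of Psmg1 and Psme4 were -1.54 and -1.45, short of a call.

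The roles differed in their medians. Among the 13 subunits of the 20S core, 10 had a higher signal in laminin-binding cells, with a median log2 fold of 0.50. Among the 17 subunits of the 19S particle, 12 had a lower signal, with a median of -0.39. The log2 folds of the core, from -0.51 to 2.49, overlapped those of the 19S particle, from -2.08 to 1.54, and the difference was not tested. The median over all 8912 genes was 0.22, with 57.4% of them higher, and over the 43 proteasome genes the median was 0.03. Other scalings kept these directions for the core, with medians of 0.41 and 0.49, and for the 19S particle, with -0.55 and -0.39, whereas the median of all 43 genes turned to -0.05 at the common 75th percentile. At 2-fold or more 7 genes were higher and 8 lower, where 10.5% and 9.72% of all genes were. Beyond 2 SD of the array error, 15 genes were higher and 14 lower, where 18.8% and 16.2% of all genes were. The catalytic subunit Psmb5 at 5815 against 2203 (2.64-fold) and the inhibitor Psmf1 at 544 against 374 (1.45-fold) were among the higher ones. The ubiquitin receptor Psmd4 at 633 against 918 and the deubiquitinating subunit Psmd14 at 4156 against 7067 (1.70-fold) were among the lower ones. In laminin-binding cells 9 of the 11 spermatocyte markers and 2 of the 6 germ cell markers were called lower, and 5 of the 12 undifferentiated spermatogonia markers were called higher. Their part in these differences was not tested.

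**Figure D2:**
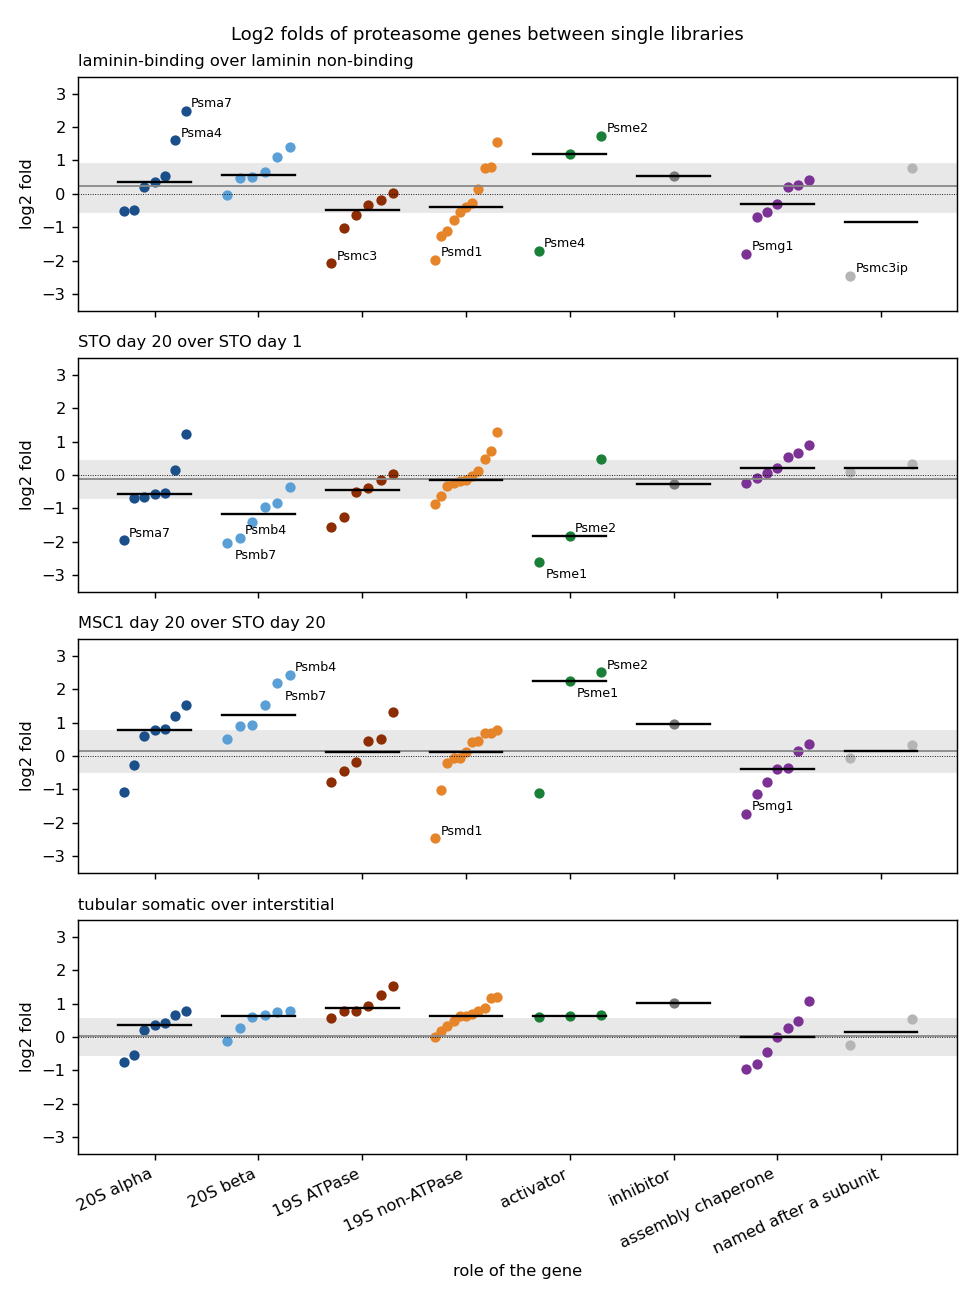
Log2 folds of the 43 proteasome genes in 4 comparisons of single libraries (panels), by role (x axis). Each point is a gene, with called genes named; black bars are the medians of the roles, the grey line is the median of 8912 genes and the grey band holds the middle part of them, from the lower to the upper quartile. The beta subunits lie below 0 on STO day 20 against day 1 and above 0 on MSC1 against STO, and in the bottom panel nearly all 19S points lie above 0.

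The second comparison followed germ cells on STO feeders from day 1 to day 20. On day 20 no proteasome gene was called higher than on day 1, where 2.09% of all genes were, and 5 were called lower, where 3.76% were. These were both subunits of the activator, Psme1 and Psme2, and the core subunits Psmb7, Psma7 and Psmb4. The signals of Psme1 on days 1, 5, 10 and 20 were 720.0, 662, 528 and 118, so that day 20 was 6.08-fold below day 1. Those of Psmb7, the beta subunit with trypsin-like activity, were 705, 640.2, 579 and 171, a 4.11-fold difference. Those of Psmb4, a beta subunit without a catalytic site, were 1859, 1665, 1191 and 503, a 3.70-fold difference. For all 3 the largest step was that from day 10 to day 20. Psma7 read 1252, 1242, 964 and 322, a 3.89-fold difference. Psme2 read 923, 1435, 744 and 261, a 3.54-fold difference after a peak on day 5. Its promoter is the one above with an interferon element match, while those of Psme1, Psmb7 and Psmb4 hold none. The other genes with a match, Psma4, Psmb3, Psmd7 and Psmg4, were 1.19-fold to 2.65-fold lower on day 20 by their brightest probe sets and were not called. The 1.19-fold of Psmg4 lay within 2 SD of the array error, which is 1.31-fold here. The type A probe set of Psmd7 read 431 on day 1 and 527 on day 20, opposite in direction to its type B probe set. A link between the match and the signals was not tested.

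Other probe sets also differed from these readings for 2 of the called genes. The type B probe set of Psma7 read 134 on day 1 and 165 on day 20, opposite in direction to the type A probe set. The type B probe set of Psme1 read 142 and 126, a difference of 1.13-fold. With all probe sets of a gene averaged, the log2 folds were -0.83 for Psma7 and -1.39 for Psme1, and neither was called. Psmb4, Psmb7 and Psme2 had no other probe set. The plot of probe sets sets these side by side.

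**Figure D3:**
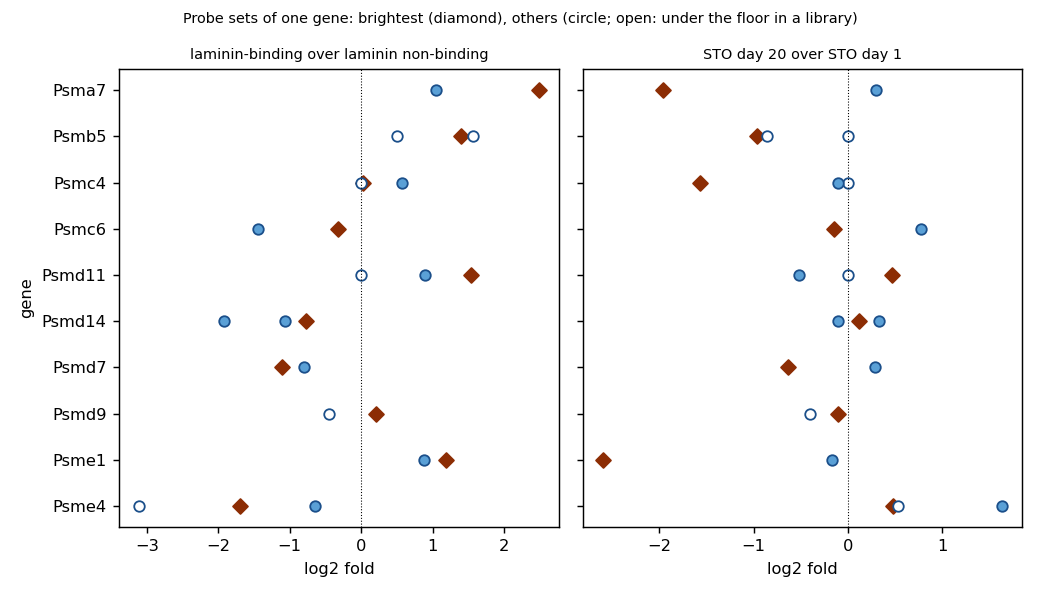
Log2 folds of every probe set of the 10 proteasome genes that have several, for laminin-binding over non-binding cells (left) and STO day 20 over day 1 (right). Diamonds are the brightest probe set, circles the others, and open circles were below the floor in at least 1 library. On the right the diamonds of Psma7 and Psme1 lie at -1.96 and -2.60 and their circles at 0.30 and -0.17.

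The genes with a higher signal on day 20 were mostly outside the core. Psmd1 read 514, 570.1, 753 and 1246 on the 4 days, higher at every step and 2.42-fold higher in all. Psma3, an alpha subunit, read 159, 135, 237 and 373, which is 2.35-fold. A brighter probe set shared by Psma3 and Psma3l went the other way, at 1017 on day 1 and 630.5 on day 20. The chaperone Psmg1 read 1476, 1202, 1419 and 2776, which is 1.88-fold, and the 19S subunit Psmd6 read 747 on day 1 and 1235 on day 20, which is 1.65-fold. None of these folds reached the threshold of 3. The 6 beta subunits were all lower on day 20, with a median log2 fold of -1.18, and 11 of the 13 core subunits were lower, with a median of -0.69. The 17 subunits of the 19S particle had a median of -0.17, and all genes had -0.12, of which 43.9% were higher on day 20. Within the 19S particle the 6 ATPases had a median of -0.46, with 5 lower, and the 11 other subunits had -0.15. The median of the 7 alpha subunits was -0.57. The ATPase Psmc4 read 887 on day 1 and 299 on day 20, at 2.97-fold just short of a call. The brighter of its type B probe sets read 184 and 172. At 2-fold or more 8 genes were lower and 2 higher, where 7.78% and 5.59% of all genes were. Beyond 2 SD of the array error 17 genes were lower and 7 higher, where 16.7% and 13.6% of all genes were. The median of the beta subunits stayed between -1.14 and -1.29 under other scalings.

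Most of the difference lay between days 10 and 20. No proteasome gene differed by 2-fold or more between day 1 and day 10, and 8 were at least 2-fold lower on day 20 than on day 10, with none higher. Among 8912 genes, 609 differed by 2-fold or more between days 1 and 10, and 1162 were lower and 607 higher on day 20 than on day 10. With the day 10 library in place of the day 20 library, 0 proteasome genes were called, where 0.167% of all genes were called higher and 0.550% lower. The median log2 fold turned from -0.25 to 0.07, and that of all genes was 0.03. The comparison with day 1 therefore rests on the STO day 20 library.

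A slope on log2 culture day was fitted with limma over the 4 STO libraries for 16066 probe sets. With 2 residual degrees of freedom, 0 of 16066 probe sets passed an adjusted p of 0.05, and 9.34% had an unadjusted p under 0.05. Of the 40 proteasome probe sets tested, 5 had an unadjusted p under 0.05, namely those of Psmb4, Psme1, Psma7, Psmb7 and Psmd1. Psmb4 had a slope of -0.39 ± 0.13 (SE) per doubling of culture time, with a limma adjusted p of 0.457, and Psmd1 had a slope of 0.27 with a limma adjusted p of 0.532. On a linear day scale, which gives the day 20 library more weight, Psma7, Psmb4, Psmb7, Psmc4, Psme1 and Psme2 fell with limma adjusted p from 0.00705 to 0.0461, where 5.21% of all probe sets fell. Without STO day 1, Psma4 was called and Psmc4 was not, again 6 genes in all, where 5.52% of all probe sets fell. Without day 5, day 10 or day 20, 0 were called. The spread in this fit is the departure from a line and not that of repeated cultures.

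Other measures moved in the same libraries. The summed signal of 13 interferon response genes was 2509 on day 1 and 971 on day 20, with 2 of them, Irf1 and Isg15, called lower. The median log2 fold over the 13 genes was -0.10, close to the -0.12 of all genes. Of 11 spermatocyte markers 5 were called higher, and of 13 fibroblast and matrix genes 4 were called higher and 1 lower, with summed signals of 4902 and 7247. Of 12 undifferentiated spermatogonia markers 6 were called lower. The part of these cells and genes in the proteasome values was not tested.

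The third comparison set MSC1 against STO feeders on day 20, and it shares the STO day 20 library with the second. On MSC1, 4 proteasome genes were called higher, where 3.63% of all genes were, and 2 lower, where 2.72% were. Psme2 read 1482 on MSC1 and 261 on STO, a 5.68-fold difference. Psmb4 read 2737 and 503 (5.44-fold), Psme1 566 and 118 (4.78-fold) and Psmb7 778 and 171 (4.54-fold). On STO day 1 these 4 genes had read 923, 1859, 720.0 and 705, so their signals on MSC1 lay nearer to those of STO day 1 than to those of STO day 20. The type B probe set of Psme1 read 206 and 126, a 1.64-fold difference, and with the probe sets averaged its log2 fold of 1.48 was not called. Psmd1 was the lowest against STO, with 225 on MSC1 and 1246 on STO (5.54-fold). Psmg1 followed with 836 and 2776 (3.32-fold). Psmg2, the partner of Psmg1 in alpha ring assembly, read 317 and 698 (2.20-fold) and Psme4 read 453 and 974 (2.15-fold), neither of them called.

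All 6 beta subunits had a higher signal on MSC1, with a median log2 fold of 1.23, as had 11 of the 13 core subunits, with a median of 0.89. Psmb5 read 3099.9 on MSC1 and 1675 on STO, and Psmf1 read 506 and 257. The 19S particle had 9 of 17 subunits higher and a median of 0.13, which turned to -0.11 with the arrays at a common 75th percentile. The deubiquitinating subunit Psmd14 read 4743 and 4936, within the array error, and Psmd4 read 451 and 339.6. The median over the 43 proteasome genes was 0.41, against 0.15 over all genes, of which 56.8% were higher on MSC1. At 2-fold or more 7 were higher and 6 lower, where 8.37% and 7.12% of all genes were. Beyond 2 SD of the array error 15 were higher and 8 lower, where 15.1% and 13.1% of all genes were. Against STO day 10 in place of day 20 only 1 gene was called, Psmd1, lower on MSC1, where 1.21% of all genes were called higher and 0.884% lower. The median was then -0.07, and that of all genes -0.01. Of the 11 spermatocyte markers 3 were called lower on MSC1, and of the 12 undifferentiated spermatogonia markers 5 were called higher and 1 lower, with summed signals of 5773 on MSC1 and 3121 on STO. Their part was not tested. The plot of signals on feeders shows the genes called here or on STO day 20.

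**Figure D4:**
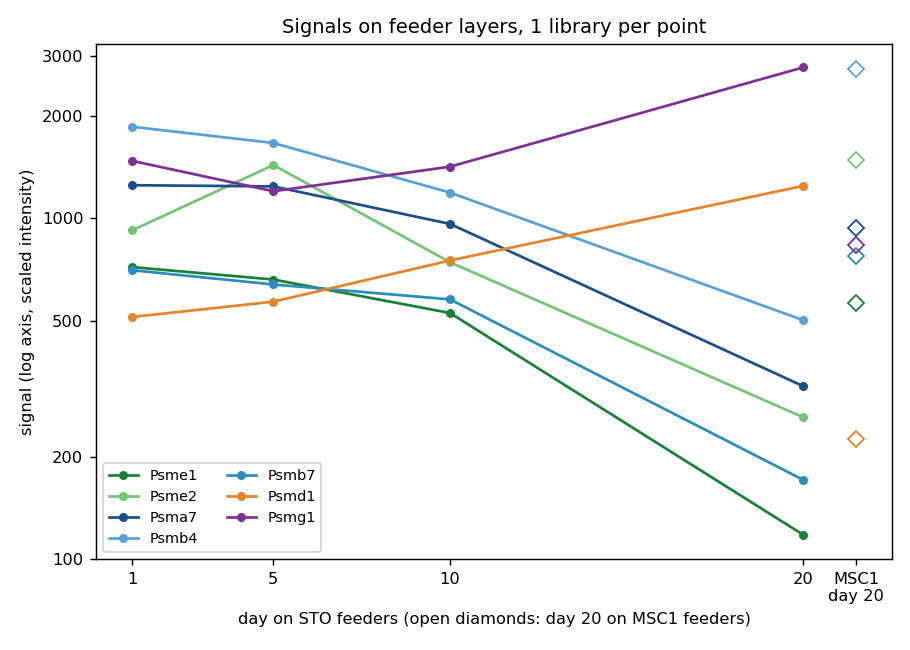
Signals of 7 proteasome genes (log axis) against day on STO feeders (filled circles, 1 library per point), with day 20 on MSC1 feeders as open diamonds at the right. The core and activator genes are lower on day 20 than on day 10, at 118 against 528 for Psme1, while Psmd1 and Psmg1 are higher, at 1246 and 2776.

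The fourth comparison set tubular somatic against interstitial cells. No proteasome gene was called in either direction, where 3.30% of all genes were called higher and 3.99% lower in tubular cells. The genes were nonetheless shifted one way by small amounts. In tubular cells 35 of the 43 had a higher signal (81.4%, against 50.8% of all genes), with a median fold of 1.52. At 2-fold or more 5 were higher and 0 lower, where 7.10% and 8.02% of all genes were. Beyond 2 SD of the array error 24 were higher and 4 lower, where 13.9% and 14.4% of all genes were. As above, these shares are not matched for brightness. The median log2 fold was 0.60 for the proteasome genes and 0.02 for all genes, and it stayed between 0.48 and 0.65 under other scalings.

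Of the 17 subunits of the 19S particle, 16 had a higher signal in tubular cells, with a median log2 fold of 0.77. Psmc3 read 829 in tubular and 288 in interstitial cells, 2.88-fold and the nearest to a call. With the arrays at a common 75th percentile its log2 fold was 1.63 and it was called. The ATPase Psmc1 read 1612 and 675 (2.39-fold), the 19S subunit Psmd3 read 322 and 141 (2.29-fold), and the large scaffold subunit Psmd2 read 2895 and 1280.5 (2.26-fold). All 3 activator genes were higher, Psme1 at 1061 against 689, Psme2 at 1524 against 967 and Psme4 at 2538 against 1674. The inhibitor Psmf1 was 2.01-fold higher, at 642 against 319.7. Psmd4 read 741 and 403, and Psmd14 read 7994 and 5193.

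Of the 13 core subunits, 10 had a higher signal, with a median of 0.43; the difference from the 19S particle was not tested. Psmb5 read 2684 and 1601, 1.68-fold higher in tubular cells. Its 2 dimmer probe sets on type B differed more, at 389 against 51.5 and 664 against 73.8, and with the 3 averaged Psmb5 was called. Of the 8 genes with a lower signal in tubular cells, the 4 beyond 2 SD of the array error were the 19S assembly chaperones Psmd10 at 172 against 333 (1.93-fold) and Psmd5 at 498 against 874 (1.76-fold), and the alpha subunits Psma1 at 1010.0 against 1689 (1.67-fold) and Psma3 at 280.5 against 409.5 (1.46-fold). The other 4 were Psmd9 at 178 against 243, Psme3ip1 at 409 against 482, and Psmb2 and Psmd11, which differed by 1.09-fold or less. Marker genes of several cell types also differed between the fractions. In tubular cells 7 of 13 interferon response genes were called higher, with summed signals of 48588 against 9361, as were 4 of 12 Sertoli markers (14042 against 7961) and 3 of 9 myoid markers (12847 against 5426). Called lower were 4 of 9 Leydig markers (1688 against 9449.6), 6 of 13 fibroblast and matrix genes (11364 against 31576) and 5 of 14 macrophage and leukocyte markers (1231 against 4640.3). The part of these cells and genes in the shift was not tested.

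**Figure D5:**
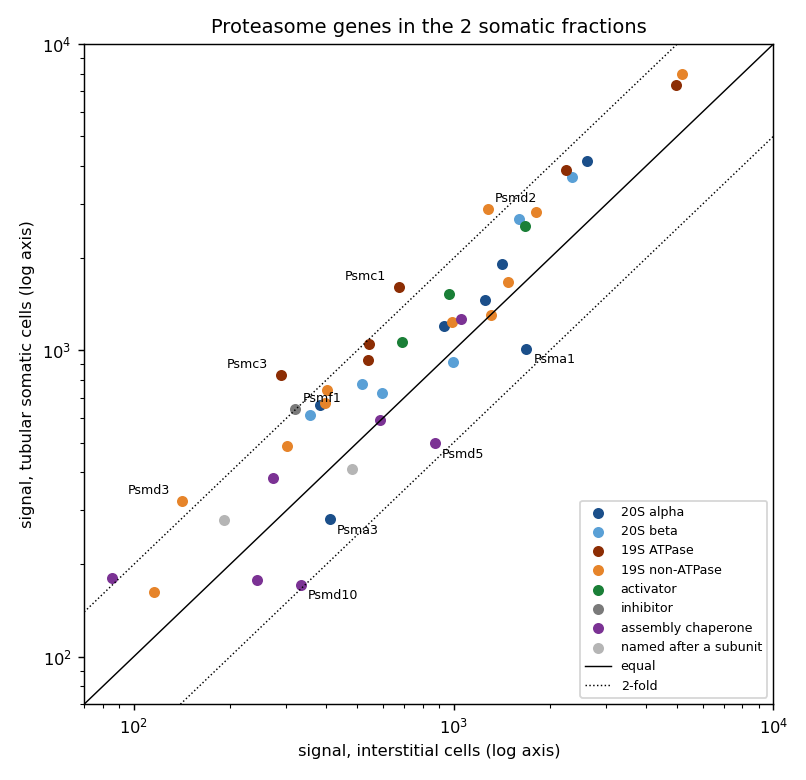
Signals of the 43 proteasome genes in tubular somatic (y axis) against interstitial cells (x axis), both on log axes and coloured by role; the solid line marks equal signals and the dotted lines a 2-fold difference. Of the points, 35 lie above the solid line, and Psmc3 at 829 against 288 lies farthest above it.

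Across all 9 libraries, 4 proteasome genes (9.30%) had all 7 germ cell signals below both somatic signals, where 10.6% of all genes did. That share is near the one of all genes. Only 1 (2.33%) had all germ cell signals above, where 13.6% of all genes did. The alpha subunits Psma2 and Psma1 were 4.70-fold and 2.99-fold lower in the germ cell libraries by geometric means. Psma1 read 271 to 536 in germ cell libraries, with a median of 468, and 1689 and 1010.0 in interstitial and tubular cells. Psma2 read 55.9 to 210.1, with a median of 128, and 382 and 661. The lowest germ cell readings of Psma2 lay just over the floor. The 19S subunits Psmd7 and Psmc6, both read on type B, were 2.98-fold and 2.66-fold lower. The other probe set of neither gene separated the groups. That of Psmd7 on type A read 589 in non-binding and 452 in interstitial cells, and that of Psmc6 read 2058 in non-binding and 2057 in tubular cells. Psme3ip1, which is only named after a subunit, was the gene above, at 585 to 1055 in germ cells against 482 and 409. The median log2 difference of germ from somatic libraries was -0.19 for the proteasome genes and 0.17 for all genes.

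Over the 9 libraries the median Pearson correlation of log2 signals was 0.46 over the 78 pairs of core subunits, with quartiles of 0.06 and 0.67. It was 0.24 over the 136 pairs of 19S subunits, with quartiles of -0.14 and 0.57, and 0.19 over the 221 pairs of a core and a 19S subunit. These spreads overlap, and the differences between them were not tested. Among genes with a geometric mean of at least 250, which leaves out Psma2 and Psma3 from the core and Psmc3, Psmd3 and Psmd8 from the 19S particle, the 3 medians were 0.60, 0.24 and 0.22, and the median over pairs of all genes that bright was 0.03. Psme1 went with Psmb7 (r = 0.92) and with Psme2 (r = 0.91). Psmd1 went with Psmg1 (r = 0.93), and Psma7 ran against Psmg1 (r = -0.88). Psme4 went with Psmc3 (r = 0.89), both high in non-binding and tubular cells. These are descriptions over 9 libraries that share arrays and scaling, and 1 or 2 libraries can set them. The genes of the pairs named were all called above in these same libraries, so their correlations are no further evidence.

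Genes that work with the proteasome were read for comparison. The 3 immunoproteasome subunits replace catalytic beta subunits after interferon. Psmb8 read 914 in laminin-binding and 245 in non-binding cells, 843, 1450.1, 408 and 85.3 over the STO days, and 1381 on MSC1. All 3 were called higher in laminin-binding cells, Psmb8 by 3.73-fold, Psmb10 by 5.53-fold and Psmb9 at 695 against 86.9, and all 3 were higher on MSC1 than on STO day 20, by 16.2-fold for Psmb8, 13.5-fold for Psmb10 and at least 8.77-fold for Psmb9, which was below the floor on STO. On STO day 20 Psmb8 and Psmb10 were 9.88-fold and 11.5-fold lower than on day 1. In tubular cells Psmb10 was 3.03-fold higher than in interstitial cells. The core assembly factor Pomp was 3.29-fold higher on MSC1 than on STO, at 951 against 289, and was the only one of 9 partner genes called in any of the 4 comparisons.

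Of 6 genes for ubiquitin-like proteins and their activation, the E1 enzyme Uba1 was 4.82-fold higher in laminin-binding cells, at 1832 against 380.0. The other ubiquitin E1 enzyme, Uba6, was 4.05-fold lower on MSC1 than on STO, at 973 against 3940.1. Of 11 shuttle factors and p97 cofactors, which bring ubiquitinated proteins to the proteasome, Ubqln2 was higher in laminin-binding cells (4.30-fold) and Ubqln1, Nsfl1c and Faf1 lower. Ubqln1 read 215 in laminin-binding and 2315 in non-binding cells (10.8-fold), 345 on STO day 1, 1126 on STO day 20 and 310.0 on MSC1. Of 12 regulators of proteasome genes, the transcription factor Maff was 6.83-fold higher in laminin-binding cells. Ngly1, the deglycosylating enzyme that processes the factor Nfe2l1, read 462 in laminin-binding and 3506 in non-binding cells (7.59-fold), 446 on STO day 1, 2559 on STO day 20 and 334 on MSC1. Both genes also read high in somatic cells, Ubqln1 at 1300.1 in interstitial and 2372 in tubular cells and Ngly1 at 2792 and 1159.7. No other gene of these lists was called in the 4 comparisons.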

How the data were processed

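The authors deposited 1 intensity per probe set on a linear scale, scaled to an average of 250 per the labels, with scale factors from 0.391 to 1.512 (type A) and from 1.047 to 4.009 (type B). Per the labels, 50 ng of RNA went through 2 rounds of amplification, which favours 3' ends. The detection calls (Tau of 0.015) were not used here, and background treatment is not given in the sources used here. No genome build is named. Type A held 12789 and type B 7570 probe sets with 1 gene in the platform annotation, which were named; those with several genes were not. The probe set with the highest mean log2 signal over the libraries stood for its gene, after signals under 50 were raised to 50. The number of arrays limits the precision.

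Samples were grouped by title. Folds compare single libraries within an array type, with a call at 3-fold or more and a brighter side of at least 250. The STO trend used limma 3.58.1 (R 4.3.3) with a variance trend, on probe sets averaging 100 or more, and Benjamini-Hochberg adjustment, and was tested on simulated data. Other steps used Python 3.11.15. The members, gene lists, tests and rules were chosen with earlier results of these data known. Named genes are every called member, the 4 largest folds in each direction with a brighter side of at least 250, the 4 widest and 4 narrowest ranges, members of special role, and partner genes called. Alternatives covered the floor, the scaling, the fold, the brightness minimum, the probe set rule, type A alone and the trend's settings.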

Additional observations from a re-analysis of the deposited data

How the results depend on the processing

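The 19 called folds were recomputed under 4 alternatives, namely a floor of 100, both other scalings and averaged probe sets. Of these 76 values 69 kept the call, 7 lost it and 0 changed direction, and the 7 are given with their genes above. The dimmer side of every called fold read 118 or more, so the floor of 100 could not end a call. Averaging could change only the calls of Psma7, Psme1 and Psme4, which have several probe sets, and it ended 3 of these. The 69 therefore include values that were fixed in advance. Quantile normalization ended 3 calls and the 75th percentile scaling 1. A floor of 25, the looser fold and brightness limits and type A alone could not end a call. The STO day 10 library in place of day 20 ended 10 of the 11 calls on feeders. Quantile normalization lowered the count for laminin-binding against non-binding cells from 8 to 5. The 75th percentile scaling raised the count for tubular against interstitial cells from 0 to 1 (Psmc3), and it moved the median of all genes for laminin-binding over non-binding cells from 0.22 to 0.08 and for MSC1 over STO from 0.15 to 0.00. Averaging probe sets gave 3 genes on STO day 20 in place of 5, and 1 in tubular cells (Psmb5). At 2-fold the counts were 15, 10, 13 and 5 for laminin-binding cells, STO day 20, MSC1 and tubular cells, where 20.2%, 13.4%, 15.5% and 15.1% of all genes were called. On type A alone 3 genes separated germ from somatic libraries in place of 5, as Psmd7 and Psmc6 were read on type B. With STO day 10 in place of day 20, an alternative chosen after seeing the data, the counts were 0 against STO day 1 and 1 against MSC1, with medians of 0.07 and -0.07. The culture trend called 0 genes and 6 on a linear day scale, and leaving out 1 day gave 0 to 6. No paired analysis was possible because there was 1 library per population. Folds near the floor are the least sure, and without repeated cultures no fold can be set against biological spread.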

Other observations

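The probe sets with several proteasome or neighbouring genes in the annotation can be given only as they stand. That of Psma3 and Psma3l read 2850.0 in laminin-binding cells, 1731 in non-binding cells, 1017, 826, 960.5 and 630.5 on STO days 1, 5, 10 and 20, 614 on MSC1, 2096 in interstitial and 1727 in tubular cells. Its signal was lower on STO day 20 than on day 1, while the probe set of Psma3 alone read 159 on day 1 and 373 on day 20. That of Psmb6 and Psmb6l1 read 382 and 311 in laminin-binding and non-binding cells, 257, 267, 324 and 125 over the STO days, 291 on MSC1, 243 in interstitial and 342 in tubular cells. Its lowest library was STO day 20, as for Psmb7 and Psmb4. The brighter 2 of the probe sets shared by Psme3, Aoc3 and G6pc1 read 742 and 744 in laminin-binding, 414 and 462 in non-binding, 305 and 471 in tubular cells.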
